A study of Homo sapiens with 16 samples.

Results

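H3K4me3 flank regions were the 2 kb windows that lay beside a transcription start without reaching within 1 kb of it. They were the regions of the osimertinib and vehicle H3K4me3 lists that the authors placed 1 to 2 kb or 2 to 3 kb from the nearest start and that stood as a single window of 2000 bp. The rule found 1340 flank regions among the 13285 H3K4me3 regions with osimertinib and 1186 among the 11621 with vehicle, 2526 of the 59617 regions in the 8 lists analysed. No measured height entered this choice. Flank windows that the files give as joined with a neighbour, 507 with osimertinib and 286 with vehicle, were left out by the rule.

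Trimethylation of lysine 4 on histone H3 (H3K4me3) sits mainly on the nucleosomes around active and poised starts, where methyltransferase complexes of the SETD1 and KMT2 families lay it down. It usually peaks on the first nucleosomes inside the gene and fades into the flanks, where monomethylation of the same residue (H3K4me1), the mark of enhancers and of promoter shoulders, takes over. Broad H3K4me3 domains that run well into a gene are known from genes of cell identity. Lysine-specific demethylase KDM1A removes methyl groups from mono- and dimethylated H3K4, and H3K9me3 marks silent heterochromatin.

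The study concerns PKM2, an isoform of pyruvate kinase, in lung cancer cells exposed to osimertinib, a drug that blocks mutant EGFR. The cells were PC9, a non-small cell lung cancer line whose growth depends on such a mutant EGFR. The libraries used here came from wild type PC9 cells with osimertinib or with the solvent DMSO (vehicle), 1 library per target and treatment, for H3K4me3, H3K4me1, KDM1A and H3K9me3. No source used here gives the dose, the duration or the type of binding assay for these libraries. With 1 library per group there was no replicate check, so no test between treatments was made and a difference between treatments and one between 2 libraries cannot be told apart. Shares carry exact 95% Clopper-Pearson intervals and differences of shares carry Newcombe intervals, and both cover counting error only. The depth of the libraries is unknown. As a check of the cell type, all 6 epithelial markers (EPCAM, CDH1, KRT7, KRT8, KRT18 and KRT19) had an H3K4me3 region within 1 kb of a start in both lists. Of 12 leukocyte markers 1 had such a region with osimertinib and 3 with vehicle, and of 12 fibroblast and endothelial markers none had one in either list.

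Regions within 1 kb of a start are called start regions below, and the flank regions were set against the single-window start regions, 5766 with osimertinib and 7461 with vehicle. Because the rule keeps regions over 1 kb from the nearest start in the authors' annotation, few could hold a start window. The low shares that follow therefore restate the rule in large part. Among them 7 with osimertinib (0.522%, 0.210 to 1.07) and 7 with vehicle (0.590%) held a whole RefSeq start window, the stretch from 250 bp before to 50 bp after a gene's start in RefSeq on GRCh38.p14. Over all H3K4me3 regions of the lists the shares were 29% with osimertinib and 43.2% with vehicle, and over start regions they were 50.8% with osimertinib and 57.3% with vehicle. Of the 14 windows inside flank regions, 5 are shown as plus-strand or minus-strand sequence in the direction of transcription, because they show what lay under a mark that the authors' annotation placed away from a start. The first lay at chr22:46071465-46071764 on the plus strand, under the LINC02939 flank region described below, and the next at chr17:7851747-7852046 on the minus strand, under a TMEM88 flank region with osimertinib. The others lay at chr14:49868121-49868420 on the minus strand, under a vehicle flank region whose gene has no symbol, at chr6:12287769-12288068 on the plus strand, under the vehicle flank region of EDN1, the gene of endothelin 1, and at chr1:17441494-17441793 on the minus strand, under an RCC2 flank region with osimertinib. Capitals mark each CG, a motif that reads the same on both strands.
LOC124905135: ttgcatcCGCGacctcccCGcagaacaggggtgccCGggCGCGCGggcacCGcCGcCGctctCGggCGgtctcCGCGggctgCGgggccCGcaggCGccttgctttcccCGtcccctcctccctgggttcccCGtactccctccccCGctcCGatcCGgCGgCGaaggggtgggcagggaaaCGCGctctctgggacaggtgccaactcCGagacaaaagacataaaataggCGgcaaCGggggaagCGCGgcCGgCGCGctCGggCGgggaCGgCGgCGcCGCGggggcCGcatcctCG
LOC107987244: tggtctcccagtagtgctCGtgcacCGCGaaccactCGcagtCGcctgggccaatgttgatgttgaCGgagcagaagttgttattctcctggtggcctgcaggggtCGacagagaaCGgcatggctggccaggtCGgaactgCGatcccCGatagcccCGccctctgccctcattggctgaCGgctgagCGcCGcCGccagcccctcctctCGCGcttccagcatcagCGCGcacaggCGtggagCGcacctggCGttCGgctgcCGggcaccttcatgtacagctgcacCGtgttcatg
LOC105378179: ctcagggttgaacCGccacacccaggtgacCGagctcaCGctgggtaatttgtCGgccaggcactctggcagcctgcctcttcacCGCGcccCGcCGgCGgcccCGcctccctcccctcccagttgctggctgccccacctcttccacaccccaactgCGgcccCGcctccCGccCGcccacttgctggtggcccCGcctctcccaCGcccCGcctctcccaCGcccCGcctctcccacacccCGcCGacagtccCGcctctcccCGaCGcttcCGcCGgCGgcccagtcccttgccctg
EDN1: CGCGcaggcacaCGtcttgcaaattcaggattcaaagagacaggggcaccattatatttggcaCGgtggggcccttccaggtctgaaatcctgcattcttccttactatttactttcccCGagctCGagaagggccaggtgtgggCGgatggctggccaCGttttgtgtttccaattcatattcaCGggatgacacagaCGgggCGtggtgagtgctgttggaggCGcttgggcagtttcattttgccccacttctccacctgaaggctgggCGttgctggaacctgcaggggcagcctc
LOC124903862: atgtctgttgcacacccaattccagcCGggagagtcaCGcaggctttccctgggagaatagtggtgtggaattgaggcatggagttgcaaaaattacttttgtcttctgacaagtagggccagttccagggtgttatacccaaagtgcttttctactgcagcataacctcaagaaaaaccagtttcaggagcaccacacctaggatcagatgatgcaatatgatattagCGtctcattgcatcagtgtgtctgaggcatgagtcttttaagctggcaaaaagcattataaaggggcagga
These windows held 43, 26, 27, 13 and 3 CG in turn, against a median of 14 over all 35116 RefSeq start windows of that length. Start windows inside start regions held a median of 29 CG in both lists, and the 7 inside flank regions a median of 12 with osimertinib and 14 with vehicle. The windows of LOC107987244 and LOC105378179 thus lay near the median of windows under start regions in CG number. That of LOC124905135 lay above their upper quartile of 36 CG, while that of LOC124903862 held very few. Windows not shown included those of PALM3, PRPF31-AS1 and LOC105372706, with 12, 14 and 3 CG.

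Flank regions lay on the downstream side of the nearest start in the authors' annotation somewhat more often than on the upstream side. With osimertinib 606 were upstream (45.2%, 42.5 to 47.9) and 734 downstream, and with vehicle 499 were upstream (42.1%, 39.2 to 44.9) and 687 downstream. The upstream shares differed by 3.15 percentage points between the lists. The interval of -0.726 to 7.01 covers counting error only, not variation between libraries. Start regions that lay beside a start without covering it had nearly the same split, with 44.4% upstream with osimertinib and 45.1% with vehicle, so the excess on the gene side was shared by the windows nearer the start. The farther windows were more one-sided with osimertinib, where 40.9% of those at 2 to 3 kb and 48.5% of those at 1 to 2 kb were upstream, a difference of -7.59 points (-12.9 to -2.21). With vehicle these shares were 41.3% and 42.5%. The side depended on the annotation. With osimertinib, 294 of the 844 flank regions whose gene's start could be placed in RefSeq (34.8%) lay upstream of that start. Of those upstream of the authors' start 265 of 379 (69.9%) did, and of those downstream of it 29 of 465 (6.24%). Of the flank regions 577 with osimertinib (43.1%) and 450 with vehicle (37.9%) lay at 2 to 3 kb, a difference of 5.12 points (1.28 to 8.93). Members just inside the rule lay 1003 bp and 3000 bp from the start with osimertinib and 1002 bp and 2997 bp with vehicle, and the nearest regions outside it lay at 1000 bp and 3001 bp with osimertinib and at 999 bp and 3001 bp with vehicle.

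**Figure D1:**
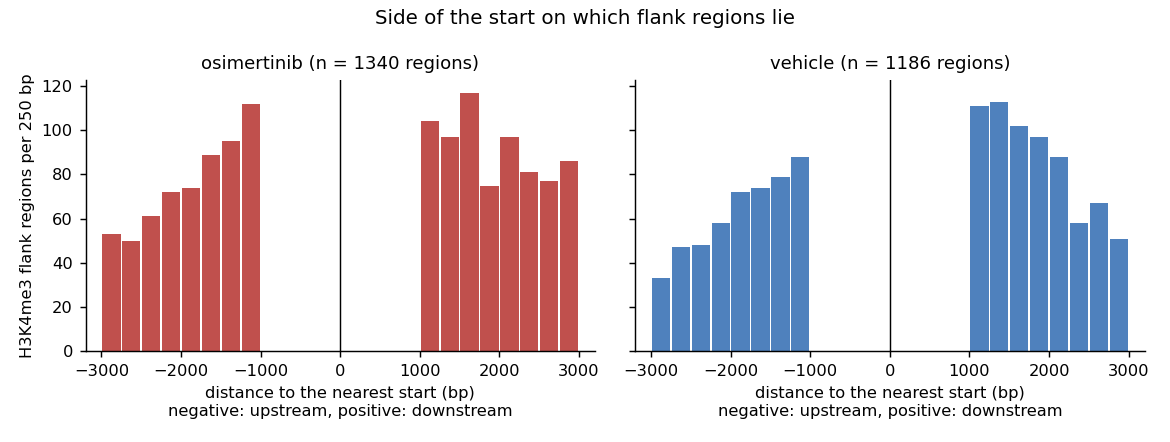
Number of H3K4me3 flank regions per 250 bp of signed distance to the nearest start (bp, negative upstream), with osimertinib on the left and vehicle on the right. Downstream bars sum to 734 with osimertinib and 687 with vehicle, above the upstream sums of 606 with osimertinib and 499 with vehicle, and the gap within 1 kb of the start is set by the rule.

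Most flank regions belonged to a gene that also had a start region in the list, not always at the start they flanked. In DOT1L the gene's own start region lay 63205 bp from an osimertinib flank region. How often the genes of other kinds of region had one was not computed. The assigned gene had a start region in the same list, joined windows included, for 862 of 1340 flank regions with osimertinib (64.3%, 61.7 to 66.9) and for 860 of 1186 with vehicle (72.5%), a difference of -8.18 points (-11.8 to -4.56). Among flank regions above the median signal of their list, these shares were nearly equal, at 75.6% with osimertinib and 76.2% with vehicle. Upstream flank regions had one more often than downstream ones, at 67.5% and 61.7% with osimertinib (5.78 points, 0.623 to 10.9) and at 76.6% and 69.6% with vehicle (6.98 points, 1.84 to 12.0). Flank regions also stood close to their neighbours. The median gap to the nearest other region of the list was 1648.5 bp for flank regions with osimertinib and 1329.5 bp with vehicle, against 3466 bp over all osimertinib regions and 3613 bp over all vehicle regions. Any region of the list stood within 3 kb of 69.9% of flank regions with osimertinib and of 81.9% with vehicle (-11.9 points, -15.2 to -8.63).

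The flank regions whose gene had no start region in the list, 478 with osimertinib and 326 with vehicle, differed in the kind of gene. The assigned gene was protein coding in RefSeq for 86.9% of flank regions with a start region and 44.4% of those without one with osimertinib, and for 93.0% and 46.3% with vehicle. Pseudogenes made up 15.9% of the flank regions without a start region with osimertinib and 7.67% with vehicle. Over all flank regions 71.7% were assigned to a protein coding gene with osimertinib and 80.2% with vehicle, against 79.8% of all H3K4me3 regions with osimertinib and 87.8% with vehicle. The remaining flank regions were mainly on genes with no RefSeq class (12.7% with osimertinib), pseudogenes (8.28% with osimertinib and 2.95% with vehicle) and long non-coding RNA genes (5.60% with osimertinib and 5.56% with vehicle). Where the gene's own start could be placed in RefSeq, it lay over 3 kb away for 405 of 844 flank regions with osimertinib (48.0%) and for 295 of 826 with vehicle (35.7%), so that those regions flanked another transcript start of the gene in the authors' annotation. Chromosome 19, which is dense in genes, held 17.2% of flank regions with osimertinib and 14.5% with vehicle, against 13.4% of all H3K4me3 regions with osimertinib and 12.8% with vehicle. Regions outside promoters were there in 15.4% with osimertinib and 23.6% with vehicle, and start regions in 10.5% with osimertinib and 10.6% with vehicle. The differences from start regions were 6.71 points with osimertinib (4.62 to 8.96) and 3.91 points with vehicle (1.89 to 6.14).

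Flank regions were low in their lists. The deposited height (signal), whose scaling is not stated and which is used only within a list, had a median of 2.51 over flank regions with osimertinib and 4.32 with vehicle, which is a median signal percentile of 29.6 with osimertinib and 24.1 with vehicle. Regions outside promoters were as low or lower, with a median percentile of 28.6 with osimertinib and 19.4 with vehicle, and start regions had one of 58.5 with osimertinib and 59.6 with vehicle. Flank regions whose gene had a start region stood higher than those whose gene had none, with medians of 33.5 and 22.6 with osimertinib and 25.8 and 19.9 with vehicle. The range was wide, from a signal of 0.847 to 80.7 with osimertinib and from 1.54 to 101 with vehicle.

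H3K4me1 covered a small share of the flank regions. An H3K4me1 region of the same treatment overlapped 91 of 1340 flank regions by at least 1 bp with osimertinib (6.79%, 5.50 to 8.27) and 173 of 1186 with vehicle (14.6%, 12.6 to 16.7), against 7.19% of all H3K4me3 regions with osimertinib and 14.3% with vehicle, so the flank shares stood near those of the lists. Start regions overlapped H3K4me1 in 3.45% with osimertinib and 12.9% with vehicle, and regions outside promoters in 14.8% with osimertinib and 22.5% with vehicle. The flank share exceeded the start share by 3.34 points with osimertinib (2.01 to 4.88) and by 1.65 points with vehicle (-0.396 to 3.90), an interval that includes 0. When start regions were weighted to the signal deciles of the flank regions, these differences were 3.45 points with osimertinib and 5.30 points with vehicle. The sides were alike, with 6.93% upstream and 6.68% downstream with osimertinib (0.255 points, -2.44 to 3.06) and 14.6% on either side with vehicle (0.0732 points, -3.93 to 4.23). Where the marks overlapped, the centre of the H3K4me1 region lay farther from the start in 41 of 91 cases with osimertinib (45.1%, 34.6 to 55.8) and 85 of 173 with vehicle (49.1%, 41.5 to 56.8), so H3K4me1 lay outward of the H3K4me3 window about as often as inward. The median overlap was 1645 bp with osimertinib and 1404 bp with vehicle, of the 2000 bp windows. Flank regions over H3K4me1 had higher signal than the others, with a median percentile of 36.3 and 29.3 with osimertinib and 35.7 and 22.6 with vehicle.

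The share over H3K4me1 was lower with osimertinib than with vehicle (difference -7.80 points, -10.2 to -5.40), and the H3K4me1 list was shorter, with 6515 regions with osimertinib and 9761 with vehicle. With the 6515 strongest vehicle H3K4me1 regions the vehicle share was 10.4%. Set against the H3K4me1 list of the other treatment, osimertinib flank regions overlapped vehicle H3K4me1 in 9.48% and vehicle flank regions overlapped osimertinib H3K4me1 in 5.90%.

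**Figure D2:**
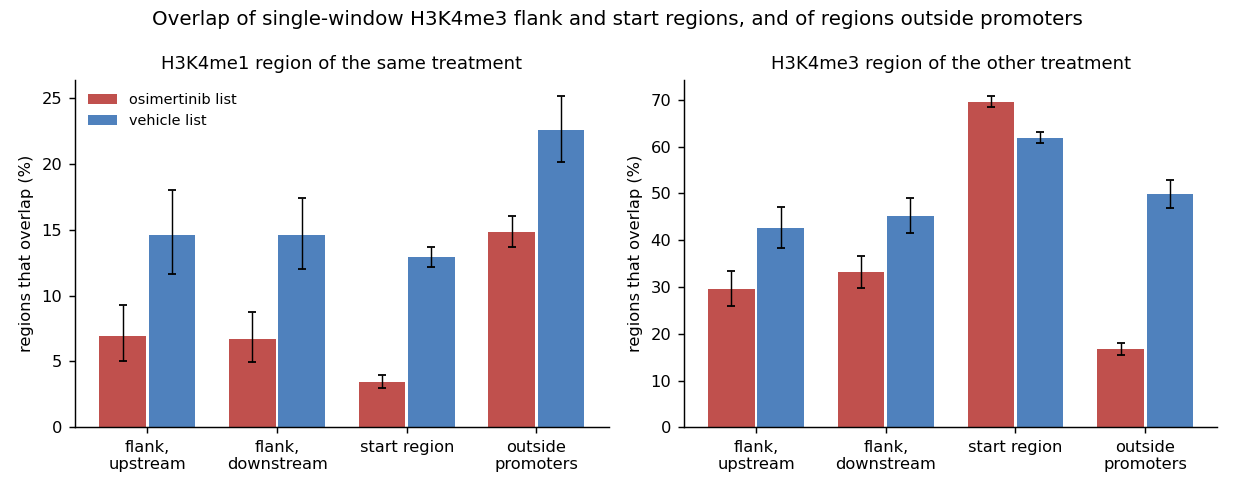
Share of H3K4me3 regions (%) that overlap an H3K4me1 region of the same treatment (left) or an H3K4me3 region of the other treatment (right), for upstream and downstream flank regions, start regions and regions outside promoters; bars are shares and whiskers exact 95% intervals for counting error. Flank regions of both sides have like shares, near 7% over H3K4me1 with osimertinib and near 15% with vehicle, and overlap the other H3K4me3 list less often than start regions do.

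The strongest flank region over H3K4me1 with osimertinib was that of EID3, a gene related to subunits of the SMC5-SMC6 complex of chromosome maintenance. Its window at chr12:104300334-104302333 (GRCh38, as the authors give it), 1406 bp upstream of the start, had a signal of 80.7 and rank 16 of 13285, and an H3K4me1 region covered 1698 bp of it. The vehicle list held a start region there instead, at a signed distance of -859 bp and rank 1038 of 11621. RNASE11, a member of the ribonuclease A family, followed at rank 425, and FTH1, the heavy chain of the iron store ferritin, at rank 1553, with 1259 bp and 1685 bp over H3K4me1. With vehicle the strongest were those of LINC02939 at rank 90, RXRA, the retinoid X receptor alpha, at rank 1140, and PLXNB2, a semaphorin receptor, at rank 1487, with 1291 bp, 679 bp and 211 bp over H3K4me1.

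Fewer flank regions than start regions were shared between the treatments. An H3K4me3 region of the vehicle list overlapped 422 of 1340 osimertinib flank regions (31.5%, 29.0 to 34.1), against 52% of all osimertinib regions, and one of the osimertinib list overlapped 524 of 1186 vehicle flank regions (44.2%, 41.3 to 47.1), against 59.6% of all vehicle regions. The shares of start regions were 69.6% with osimertinib and 61.9% with vehicle, so flank regions were shared less often, by a difference of -38.1 points with osimertinib (-40.8 to -35.3) and -17.7 points with vehicle (-20.7 to -14.7). Signal moved with sharing: in the upper signal tertile of each list 66.0% of osimertinib and 75% of vehicle flank regions were shared, and in the lower tertile 19.4% of osimertinib and 35.8% of vehicle flank regions were. Regions outside promoters were shared in 16.8% with osimertinib and 49.95% with vehicle. With start regions weighted to the flank signal deciles, the difference was -21.3 points with osimertinib and turned to 3.07 points with vehicle. In the vehicle list, start regions of like signal were therefore shared about as often as flank regions, at 41.1%, while with osimertinib they were shared in 52.8%.

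With osimertinib, flank regions whose gene had a start region in the list were shared more often than those whose gene had none, at 37.6% and 20.5% (17.1 points, 12.1 to 21.8). With vehicle these shares were 44.4% and 43.6% (0.860 points, -5.48 to 7.10). The region met in the other list was itself a single-window flank region in 209 osimertinib and 209 vehicle cases, with a median shift of the centre of 216 bp. A start region was met in 124 osimertinib cases (79 single and 45 joined) and in 138 vehicle cases (73 single and 65 joined), and its centre lay nearer the start in 115 of the osimertinib and 134 of the vehicle cases. The median shift of the centre was 1369.5 bp for osimertinib and 1363 bp for vehicle flank regions. Start and flank regions are told apart by distance, so the nearer centre and the size of this shift restate the classes in large part. The rest met joined flank windows, 60 with osimertinib and 111 with vehicle, or regions outside promoters, 29 with osimertinib and 66 with vehicle.

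**Figure D3:**
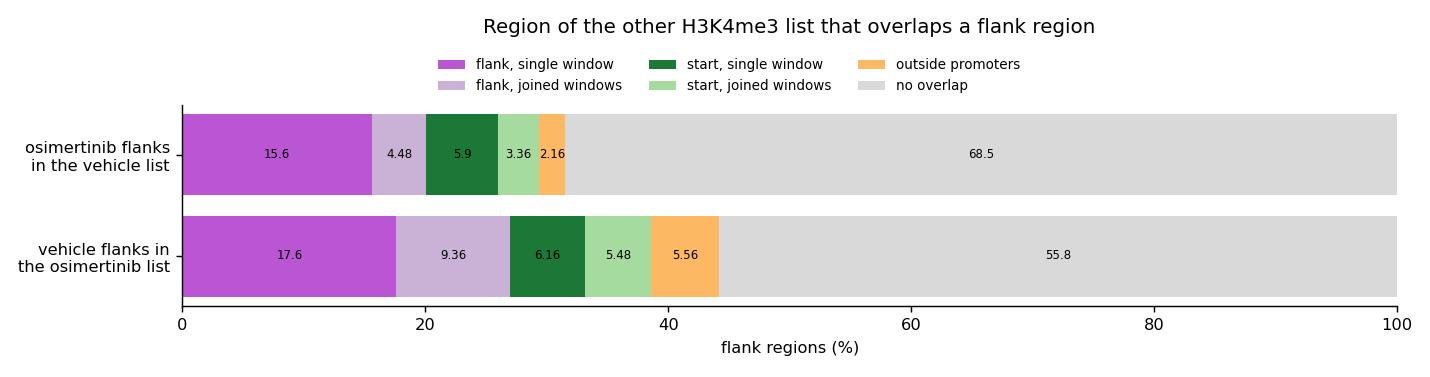
Kind of H3K4me3 region of the other list that overlaps a flank region, as a share of flank regions (%), for the 1340 osimertinib flank regions above and the 1186 vehicle flank regions. No overlap was found for 68.5% with osimertinib and 55.8% with vehicle, and another single-window flank region was met by 15.6% of osimertinib and 17.6% of vehicle flank regions.

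By gene, 1238 genes had a flank region with osimertinib and 1103 with vehicle, which is 17.4% (osimertinib) and 13.6% (vehicle) of the genes with any H3K4me3 region within 3 kb of a start. Of these genes 265 had one in both lists, 973 with osimertinib only and 838 with vehicle only. Neither this split nor the counts that follow were made for all genes with an H3K4me3 region within 3 kb of a start. They are therefore not known to be particular to flank genes. Among the 265 shared genes 205 had a flank region on the same side in both lists and 197 had flank regions that overlapped. Of the 973 osimertinib-only genes 546 had a start region in the vehicle list and 410 had no promoter region there, and of the 838 vehicle-only genes 557 had a start region in the osimertinib list and 247 had no promoter region there. When a gene whose flank region overlapped any region of the other list was counted as in both, 717 genes were in both.

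Most genes had a single flank region, 1142 of 1238 with osimertinib and 1024 of 1103 with vehicle, and 76 genes with osimertinib and 69 with vehicle had flank regions both upstream and downstream of annotated starts, not always of the same start. Among the 6 genes with 3 flank regions with osimertinib were RAD9A, a subunit of a DNA damage checkpoint clamp, GYS1, a glycogen synthase, and NECTIN2, a cell adhesion protein. The vehicle list had 4 such genes, among them CIC, a transcriptional repressor under the control of ERK, TALDO1, an enzyme of the pentose phosphate pathway, and SEPTIN1, a GTP-binding protein of the cytoskeleton. Some of these windows flanked annotated starts far from the gene's RefSeq start. Signed distances from that start reached -75262 bp in RAD9A, 24211 bp in GYS1 and 37256 bp in NECTIN2 with osimertinib. With vehicle they reached -17803 bp in CIC and 11826 bp in TALDO1. In CIC the regions lay 1200 bp downstream and 1871 bp and 2907 bp upstream of annotated starts, and osimertinib H3K4me3 regions overlapped all 3, while none overlapped the 3 of SEPTIN1.

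In the upper signal tertile 71.4% of flank regions with osimertinib and 70.5% with vehicle were assigned to protein coding genes, and among the 8 strongest named per list 4 were. LINC02939, a long non-coding RNA gene, had the second strongest upstream flank region with osimertinib, at chr22:46071154-46073153, 1263 bp upstream, with a signal of 45.4 and rank 79 of 13285, and the strongest with vehicle, at chr22:46072095-46074094, 2204 bp upstream, with a signal of 101 and rank 90 of 11621. They overlapped by 1059 bp, no start region was assigned to this gene in either list, and the osimertinib window held the RefSeq start LOC124905135 shown above. Signed distances from the RefSeq start of LINC02939 itself were shorter, at -133 bp for the osimertinib window and -1074 bp for the vehicle window. CASP16P, a caspase pseudogene, was likewise among the strongest downstream in both lists, at rank 260 with osimertinib and rank 1048 with vehicle, with windows that overlapped by 1426 bp. ZNF837, a zinc finger gene, had its vehicle window at rank 674, overlapped over 1978 bp by an osimertinib flank region at rank 264, and no start region in either list. LINC03061 had windows at rank 658 with osimertinib and rank 509 with vehicle that overlapped by 1923 bp. These windows were near the top in both libraries.

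Other strong flank regions stood beside a start region of the other list. LASP1, an actin-binding protein of cell adhesion, had an osimertinib flank region 1147 bp upstream at rank 200, and the nearest vehicle region was a start region at rank 86, 525 bp away. H3C15, a histone H3 gene, had one 1277 bp downstream at rank 71 and no start region in the osimertinib list, while the vehicle list had a start region at rank 99, 547 bp away. F3, the tissue factor that starts blood clotting, had a vehicle flank region 1050 bp downstream at rank 145 of 11621, and KCTD2, a BTB-domain protein, one 1729 bp downstream at rank 644. The osimertinib list held start regions over these windows, 15 bp downstream in F3 at rank 74 of 13285 and 821 bp downstream in KCTD2 at rank 11, with 965 bp and 1092 bp in common. In RXRA the vehicle window 1381 bp downstream met an osimertinib start region 498 bp downstream, and LINC01556 had the like, with a vehicle flank region at rank 953 and an osimertinib start region at rank 33. In F3, KCTD2, RXRA and LINC01556 overlapping windows were thus listed as a flank region with vehicle and as a start region with osimertinib. From the gene's RefSeq start, the signed distance of the vehicle window was -10885 bp in KCTD2 and -49335 bp in RXRA. These 2 windows therefore flanked another annotated start. In F3 it was 1172 bp and in LINC01556 -1226 bp. Other members near the top with osimertinib were RNU6-471P at rank 95 and RN7SL471P at rank 149, both pseudogenes of small RNAs.

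**Figure D4:**
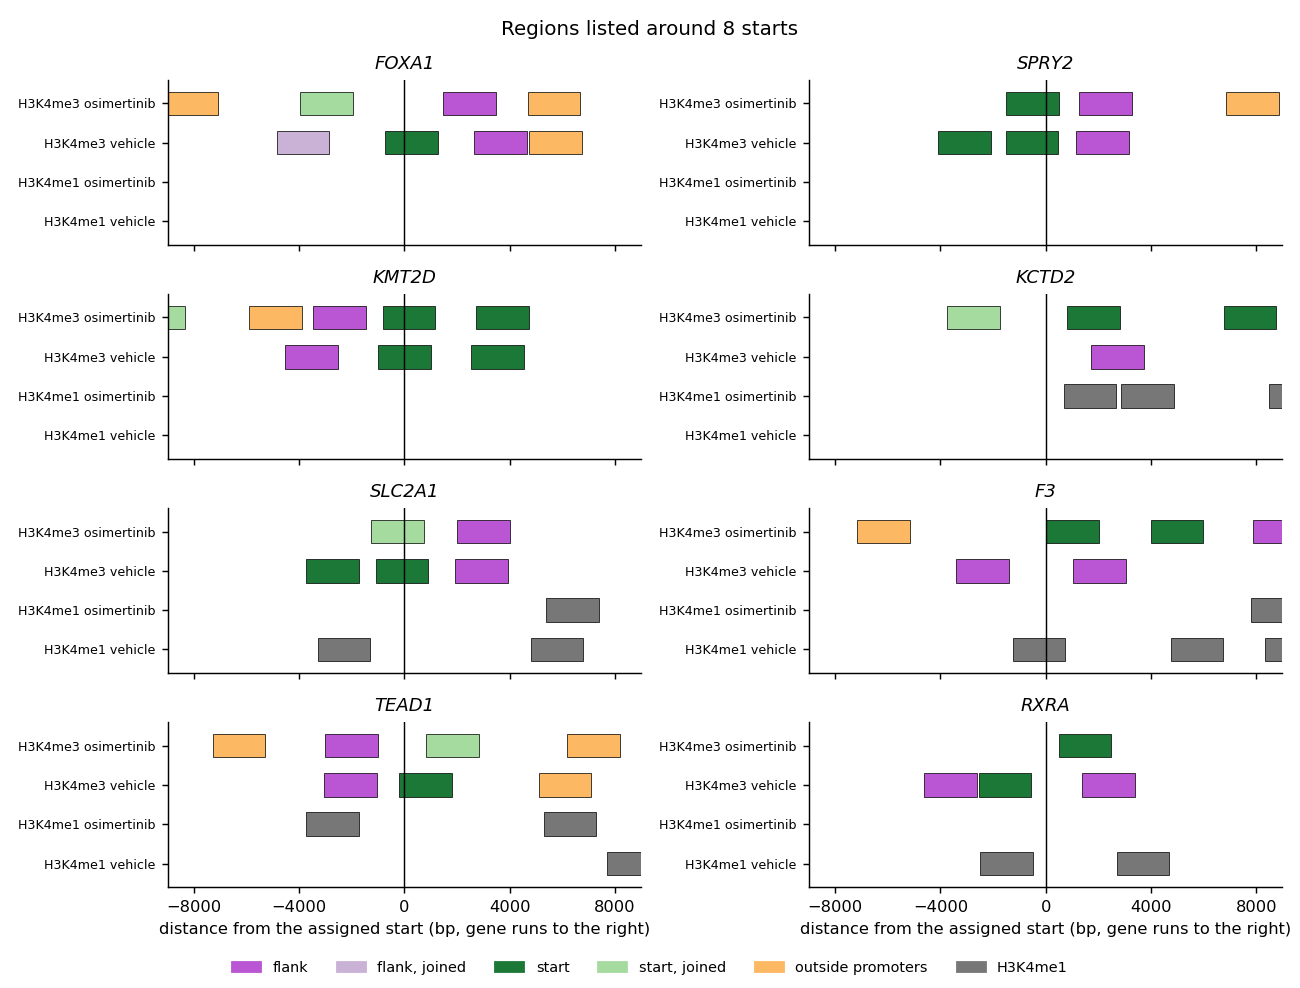
H3K4me3 and H3K4me1 regions of both treatments around 8 starts, by distance from the start of the transcript assigned to the gene's flank region (bp, the gene runs to the right); bars are 2 kb windows and colours give the authors' class. In KCTD2 and F3 an osimertinib start region, nearer the start by its class, overlaps the vehicle flank region. In SLC2A1, TEAD1 and SPRY2 the flank regions of both lists nearly coincide.

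Genes of epithelial identity had many flank regions with vehicle. Of 24 listed genes, 2 of the 17 with a promoter region had a flank region with osimertinib (11.8%) and 9 of 20 with vehicle (45%), against 17.4% of all promoter genes with osimertinib and 13.6% with vehicle. FOXA1, a pioneer transcription factor, had one in both lists, 1469 bp downstream at rank 280 with osimertinib and 2643 bp downstream at rank 3165 with vehicle, and they overlapped by 826 bp. CLDN4, a tight junction protein, had one with osimertinib only, 2993 bp downstream at rank 5588. The vehicle-only genes were OVOL1, an epithelial transcription factor, DSP and JUP of the desmosome, CDH1 (E-cadherin), the keratins KRT8 and KRT18, the splicing regulator ESRP1 and OCLN of tight junctions. All but JUP among these 8 genes had a start region in the osimertinib list. The strongest were OVOL1, 1501 bp upstream at rank 3268, and DSP, 1419 bp downstream at rank 4554, and joined start windows of the osimertinib list overlapped them by 1187 bp and 1108 bp. With joined flank windows included, the counts were 6 of 17 with osimertinib (35.3%) and 10 of 20 with vehicle (50%), against 22.9% of all promoter genes with osimertinib and 16.6% with vehicle. Counted in this way, 4 of these genes had a flank window in both lists, 2 with osimertinib only and 6 with vehicle only. CDH1, KRT8 and KRT18 had no flank window of either kind with osimertinib, and the KRT8 vehicle region, 2410 bp upstream, lay over H3K4me1 for 1946 bp.

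Genes of histone lysine methylation had flank regions in 9 of 28 promoter genes with osimertinib (32.1%) and 9 of 32 with vehicle (28.1%), against 17.4% of all promoter genes with osimertinib and 13.6% with vehicle. The same 6 genes had one in both lists. They were KMT2A, KMT2D and KMT2E of the H3K4 methyltransferase family, SETD2, which trimethylates H3K36, KDM2A, an H3K36 demethylase, and RCOR3, a CoREST protein that partners KDM1A. DOT1L, EZH2 and SUV39H1, which methylate other residues of H3, had one with osimertinib only, and KDM5B, an H3K4me3 demethylase, RCOR1 and SETD1A, the catalytic subunit of an H3K4 methyltransferase complex, with vehicle only. This split counts single windows. EZH2 had 2 joined flank regions with vehicle, and a vehicle region overlapped its osimertinib window. A DOT1L osimertinib window lay 34 bp from a vehicle start region of the gene. In KMT2D the windows lay 1462 bp upstream at rank 4813 with osimertinib and 2525 bp upstream at rank 5300 with vehicle, and overlapped by 937 bp beside a start region at rank 566 with osimertinib and at rank 204 with vehicle. In KMT2E they lay 1227 bp downstream at rank 3485 with osimertinib and 2433 bp downstream at rank 5973 with vehicle. In KMT2A they lay 1877 bp downstream at rank 12735 with osimertinib and 1775 bp downstream at rank 11304 with vehicle. KDM2A had 2 flank regions in each list. A vehicle one, 1126 bp downstream at rank 4899, lay over H3K4me1 for 1987 bp and overlapped an osimertinib start region by 271 bp. An osimertinib one, 1183 bp upstream at rank 5856, lay 5729 bp from the nearest vehicle H3K4me3 region. With joined windows the counts were 11 with osimertinib (39.3%) and 11 with vehicle (34.4%), against 22.9% of all promoter genes with osimertinib and 16.6% with vehicle.

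In sterol synthesis 4 of 12 promoter genes had a flank region with osimertinib (33.3%) and 1 of 18 with vehicle (5.56%), against 17.4% of all promoter genes with osimertinib and 13.6% with vehicle. Those with osimertinib included FDFT1 (squalene synthase), FDPS (farnesyl diphosphate synthase) and SREBF2, the transcription factor that drives the pathway. FDFT1 was the strongest, 2279 bp downstream at rank 3914, over H3K4me1 for 1803 bp, with its nearest vehicle H3K4me3 region 8413 bp away. The SREBF2 window, 1605 bp upstream, stood at rank 12728 and the gene had no start region with osimertinib but had one at rank 4367 with vehicle. With joined windows included, the counts were 4 with osimertinib (33.3%) and 3 with vehicle (16.7%). All promoter genes then stood at 22.9% with osimertinib and 16.6% with vehicle, so the vehicle share was near that of all genes. A joined vehicle flank region overlapped the FDPS window by 1296 bp.

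In fatty acid synthesis 0 of 14 promoter genes had a flank region with osimertinib and 2 of 20 with vehicle (10%). All promoter genes stood at 17.4% with osimertinib and 13.6% with vehicle. The 2 genes were TECR, an enzyme of chain elongation, and SREBF1, the transcription factor of the pathway. The TECR window met a joined osimertinib flank region over 1075 bp, and the SREBF1 window, 2190 bp upstream at rank 9935, lay over H3K4me1 for 984 bp. With joined windows included, the fatty acid counts were 2 of 14 with osimertinib (14.3%) and 3 of 20 with vehicle (15%). All promoter genes were then at 22.9% with osimertinib and 16.6% with vehicle. In glycolysis 3 of 14 genes had a flank region with osimertinib (21.4%), PKM, ALDOA and SLC2A1. With vehicle 4 of 15 had one (26.7%), HK1, LDHA, ALDOA and SLC2A1. The shares over all promoter genes were again 17.4% with osimertinib and 13.6% with vehicle. With joined windows included the glycolysis shares were 28.6% with osimertinib and 40% with vehicle, against 22.9% of all promoter genes with osimertinib and 16.6% with vehicle. The glucose transporter SLC2A1 had windows 2001 bp downstream with osimertinib, at rank 11252, and 1926 bp downstream with vehicle, at rank 7251, which overlapped by 1925 bp. PKM, the pyruvate kinase gene whose PKM2 isoform the study concerns, had its osimertinib window 1874 bp downstream at rank 7522, and a joined vehicle flank region overlapped 1404 bp of it. HK1, a hexokinase, had its vehicle window at rank 7669 over H3K4me1 for 1070 bp and no H3K4me3 start region with osimertinib. In the tricarboxylic acid cycle CS, citrate synthase, had a flank region with osimertinib (1 of 7, 14.3%) and no gene did with vehicle (0 of 14). These counts also stood against 17.4% of all promoter genes with osimertinib and 13.6% with vehicle.

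Among EGFR-MAPK genes 2 of 21 had a flank region with osimertinib (9.52%) and 4 of 22 with vehicle (18.2%), against 17.4% of all promoter genes with osimertinib and 13.6% with vehicle. SPRY2, a feedback inhibitor of receptor signalling, had one in both lists, 1264 bp downstream at rank 5970 with osimertinib and 1169 bp downstream at rank 10098 with vehicle, with 1905 bp in common. The immediate early gene FOS had one with osimertinib only, 2981 bp downstream at rank 8993. FOSL1 and JUN, which like FOS encode subunits of AP-1, and SPRED1, an inhibitor of the pathway, had one with vehicle only. The FOSL1 window, 2727 bp downstream, was the strongest at rank 3052 and lay over H3K4me1 for 1825 bp, and an osimertinib region beyond the promoter overlapped it by 865 bp. JUN had its vehicle window 2224 bp downstream at rank 5401, 957 bp from a joined start region of the osimertinib list at rank 516.

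TEAD1, a partner of YAP, had flank regions in both lists, 1007 bp upstream at rank 6490 with osimertinib and 1050 bp upstream at rank 7660 with vehicle, with 1957 bp in common, and its relative TEAD3 had one with vehicle at rank 7944. H3K4me1 covered 1265 bp of the TEAD1 window with osimertinib and none of it with vehicle. In the cell cycle list 1 of 16 genes had a flank region with osimertinib (6.25%) and 4 of 22 with vehicle (18.2%). Over all promoter genes these shares were 17.4% with osimertinib and 13.6% with vehicle. The osimertinib gene was RRM2, a ribonucleotide reductase subunit, at rank 5211. The vehicle genes were the mitotic kinases AURKA and AURKB, the CDK inhibitor CDKN2C and the replication helicase subunit MCM7. No mesenchymal gene had a flank region, of 3 promoter genes with osimertinib and 4 with vehicle, and neither had a leukocyte, fibroblast or endothelial marker.

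**Figure D5:**
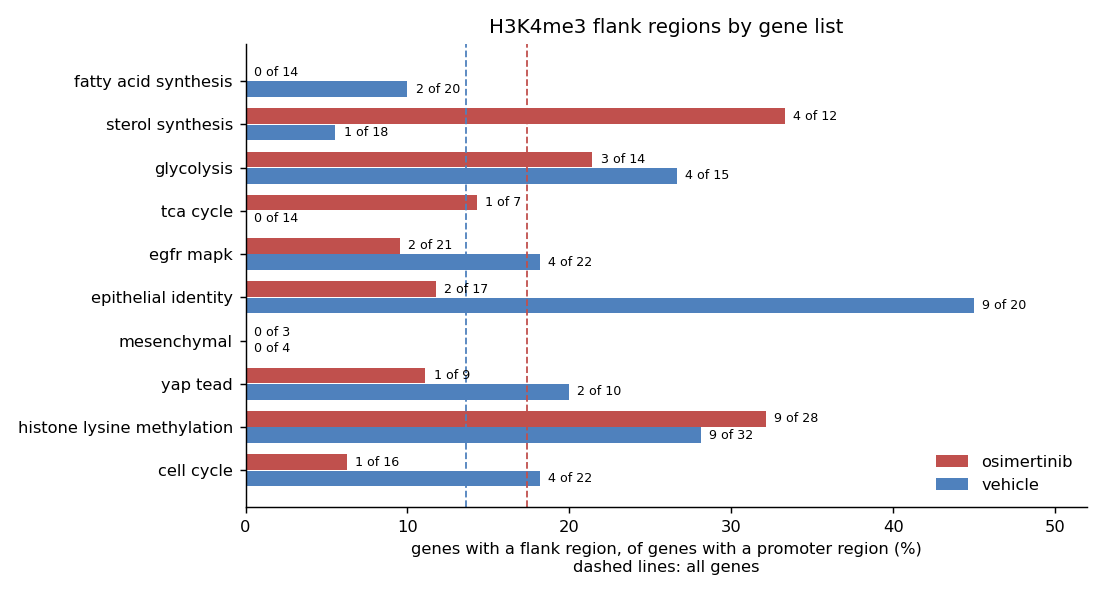
Genes with a flank region as a share of the genes of each list with any promoter region (%), with osimertinib above and vehicle below; labels give the counts and dashed lines the shares over all promoter genes, 17.4% with osimertinib and 13.6% with vehicle. The epithelial list stands at 11.8% with osimertinib and 45% with vehicle and the histone lysine methylation list at 32.1% with osimertinib and 28.1% with vehicle, single windows only.

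KDM1A and H3K9me3 regions met few flank regions. A KDM1A region of the same treatment overlapped 26 flank regions with osimertinib (1.94%, 1.27 to 2.83) against 1.66% of all H3K4me3 regions, and 0.337% of flank regions with vehicle against 0.336% of all. The flank share was above the start share of 0.798% with osimertinib by 1.14 points (0.475 to 2.05). An H3K9me3 region overlapped 36 flank regions with osimertinib (2.69%, 1.89 to 3.70) against 2.36% of all, and 1.10% with vehicle against 1.17%. Start regions overlapped H3K9me3 in 1.14% with osimertinib and 0.603% with vehicle.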

How the data were processed

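Wild type PC9 cells with osimertinib or vehicle were profiled for KDM1A, H3K4me1, H3K4me3 and H3K9me3, 1 library each, and groups came from the sample titles. The 6 RNA and 2 IgG samples were not used here. Reads were placed on GRCh38 (hg38) and Bowtie2 2.3.4, HISAT2 and featureCounts were used, per the submitters' processing notes, which do not tie tools to assays. No source used here states the peak caller, its threshold, any control or the annotation tool. The deposited signal is a height per region of unstated scaling, used only within a list. Other deposited columns, per the file headers, give a signed distance in bp to the nearest start and the width 2000, repeated where windows were joined. Peaks, classes and genes are the authors'. The sign and size of the distance were checked from the positions.

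Members and lists were chosen with earlier results of these data known. An overlap is at least 1 bp, checked against bedtools 2.31.1 and tested on simulated regions. Symbols matched 86.9% of flank regions with osimertinib and 90.1% with vehicle, and RefSeq classes 87.3% with osimertinib and 90.3% with vehicle. RefSeq (GRCh38.p14) supplied gene classes and start windows. Named genes were those of the 4 strongest flank regions on each side, the 3 strongest over H3K4me1 and the 3 genes with most flank regions per list, and up to 3 per gene list and treatment, leaving out genes without a symbol. Others were named after their values were seen. A few list members are not reported here. Tables and intervals were made in Python 3.11.15 with pandas 2.3.3, scipy 1.17.1 and numpy 2.4.6, and figures with matplotlib 3.10.9. Read depth is not stated, and precision comes from how many regions a share counts. Alternatives were joined windows, single distance classes, regions above the median signal of a list, equal numbers of strongest regions, overlaps of 1000 bp, gaps up to 1 kb and no chromosome Y. Those with the first 50 Mb of chromosome 5 left out, start regions weighted by signal decile, protein coding genes alone, a wider count of shared genes and joined windows in gene lists were added after seeing the data.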

Additional observations from a re-analysis of the deposited data

How the results depend on the processing

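Of 59 alternatives to 23 results, 33 stayed within the interval, or for counts within 1.5 times, of the reported value, 25 moved beyond it and 1 turned its direction. The 1-2 kb class alone held 763 flank regions with osimertinib and 736 with vehicle. The upstream share with osimertinib was 48.5% in the 1-2 kb class and 40.9% in the 2-3 kb class. The share of flank regions whose gene had a start region was 50.5% with osimertinib and 63.2% with vehicle for single-window start regions only, 61.3% with osimertinib and 77.0% with vehicle for any start region within 3 kb, and 75.6% with osimertinib and 76.2% with vehicle for flank regions above the median signal of the lists. Overlap with H3K4me1 was 4.93% with osimertinib and 10.03% with vehicle at 1000 bp or more, 8.51% with osimertinib and 19.9% with vehicle within 1 kb, and 10.4% in the vehicle list with equal numbers of H3K4me1 regions. Overlap with the other H3K4me3 list was 21.0% with osimertinib and 28.0% with vehicle at 1000 bp or more, 45.5% with osimertinib and 63.8% with vehicle within 1 kb, and 37.6% with osimertinib for equal numbers of strongest regions. With start regions weighted to flank signal deciles, the flank minus start difference over the other H3K4me3 list was -21.3 points with osimertinib and turned to 3.07 points with vehicle, and over H3K4me1 it was 5.30 points with vehicle. Genes counted in both lists became 717 when overlap with any region sufficed. With joined windows the epithelial count was 6 with osimertinib and the sterol count 3 with vehicle. Except where a narrower class, wider gap or added windows set the change by construction, the cause was not tested.

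The main limits are 1 library per group, unknown depth and an unstated peak caller, so no treatment difference has a replicate check. The rule keeps single windows, and joining was more common with osimertinib. No paired analysis was possible because each group has 1 library and no result comes from a test.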
